A study of Mus musculus with 24 samples.

Results

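The beta-1,4-galactosyltransferases of the mouse, B4galt1 to B4galt7, were followed in retinas of mice with a mutant rhodopsin and in retinas of normal mice. Members were taken by name, as every probe set whose transcript identifier maps to one of these genes. Each of the 7 genes had 1 probe set, 7 of the 1246 on the array, and none of them has a suffix that marks probes shared with other transcripts. RP mutant mice were P347S+, a transgenic line that carries the P347S form of rhodopsin, the light receptor of rods, and normal mice were P347S-. Retinas of each genotype were taken at 1, 2, 3 and 4 months, with 3 arrays a group and 24 in all. The promoter and copy number of the transgene, the strain background and the number of animals behind an array are not given in the sources used here, and sex is recorded as unknown. The study's design text describes the loss of rods as hardly visible at the youngest age and advanced at the oldest, and asks which glycan genes change along that course.

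Beta-1,4-galactosyltransferases are Golgi enzymes that move galactose from UDP-galactose to an acceptor sugar. B4galt1, B4galt2 and B4galt3 add galactose to the N-acetylglucosamine ends of N-glycans, the step that precedes capping with sialic acid. B4galt5 and B4galt6 turn glucosylceramide into lactosylceramide, the precursor of the gangliosides that are abundant in neural membranes, B4galt4 acts on sulfated N-acetylglucosamine as in keratan sulfate, and B4galt7 adds the first galactose of the linker that joins glycosaminoglycan chains to proteoglycan cores.

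Values are log2 RMA signals made by the authors. Array medians lay between 5.15 and 5.34, and the mean signals of the 7 probe sets lay between the 66.9th (B4galt7) and the 88.9th percentile (B4galt1) of all probe sets. Signals of different members are not set against each other, and the marker sums given below add signals of different probe sets. Each p weighs a difference against the spread between these arrays. Since the labels name no animals behind the arrays, that spread may not be the spread between animals. The number of arrays limits the precision. An exact test of 3 arrays against 3 goes no lower than p = 0.1. Calls at a single age therefore depend on the spread pooled over all 24 arrays of a probe set (16 residual degrees of freedom). To this limma adds a spread shared across probe sets (4.37 prior degrees of freedom). Of the written list of rod and cone markers only Gnb1, a subunit of the rod transducin, was measured. This 1 gene, read in whole retina, does not measure the number of rods. No 2 arrays held identical values. Grifin, a lens gene, stood above a log2 signal of 10 on 3 arrays, replicate 2 of the mutant retinas of 2 months, replicate 2 of the normal ones of that age, and replicate 1 of the normal retinas of 4 months. On these the members lay within the range of the other 21 arrays, except that the mutant array had the lowest B4galt2 reading of all (7.74).

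Across the 4 ages, 6 of the 7 members passed the test of mutant against normal retinas, 3 higher and 3 lower (limma, Benjamini-Hochberg adjusted p under 0.05 over all 1246 probe sets). Over all probe sets 22.6% passed, 13.8% higher and 8.83% lower. A gene said below to rise or fall by an amount was higher or lower in mutant than in normal retinas. A difference over the 4 ages is the mean of the single-age differences and not a change with time. The 2 lactosylceramide synthase genes and B4galt4 were higher in mutant retinas, and B4galt1, B4galt3 and B4galt7 were lower, while B4galt2 did not pass. The median difference of the 7 members was -0.13 on the log2 scale, against -0.03 for all probe sets. Without the 3 arrays of high Grifin signal 4 of the 7 passed, and the share of all probe sets in that fit is not given here. B4galt3 (adjusted p = 0.089) and B4galt7 (adjusted p = 0.0651) were the members lost.

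Calls came with age. No member passed at 1 month, where 0.321% of probe sets did and no member had an unadjusted limma p under 0.05. At 2 months 1 member passed (B4galt1), against 3.45% of probe sets. At 3 months 4 passed (B4galt1, B4galt4, B4galt5 and B4galt6), against 12%, and at 4 months 3 passed (B4galt1, B4galt4 and B4galt5), against 12.9%. Quantile normalization applied again left 5 members at 3 months, 2 higher and 3 lower, as B4galt4 was lost (0.19, adjusted p = 0.159) and B4galt2 (-0.41, adjusted p = 0.00458) and B4galt7 (-0.33, adjusted p = 0.00711) were gained. That fit called 185 of all probe sets at 3 months, against 150 with the values as deposited. With only the 6 arrays of an age in the fit no member passed at 2 or at 3 months and 3 passed at 4 months. Shares of all probe sets in these smaller fits are not given here. The arrays of the genotypes did not overlap for 4 members at 1 month (22.1% of probe sets), for 3 at 2 months (17.4%), for 5 at 3 months (32.6%) and for 5 at 4 months (30%).

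**Figure D1:**
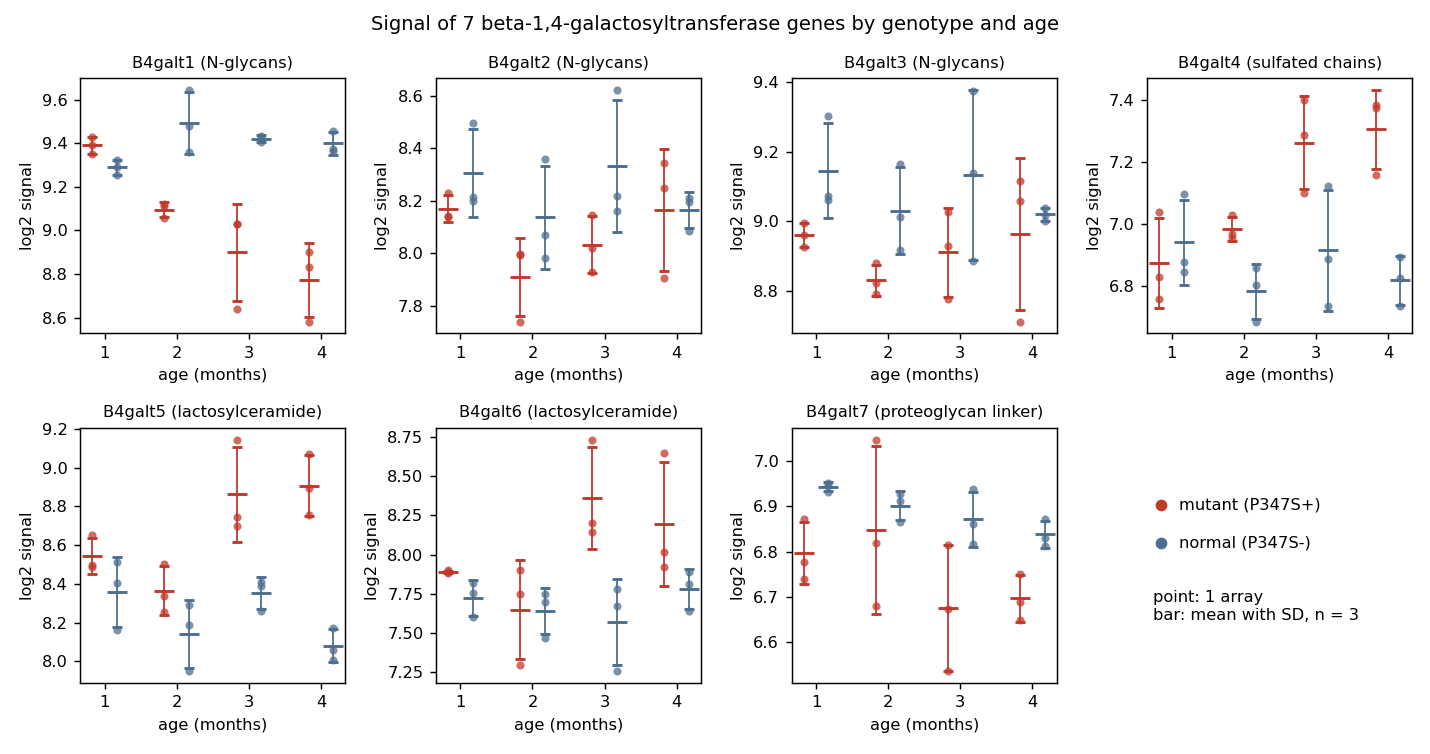
Log2 RMA signal (vertical axis, scaled for each gene) of the 7 members against age in months, mutant retinas in red and normal retinas in blue. Each point is 1 array and each bar the mean with its SD (n = 3). B4galt1 separates downwards in mutant retinas from 2 months and B4galt5 upwards from 3 months.

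B4galt1, the most widely used galactosyltransferase of N-glycans, was lower in mutant retinas from 2 months on, and its difference grew with age. At 1 month its log2 signal was 9.35, 9.39 and 9.43 in mutant retinas, against 9.32, 9.25 and 9.29 in normal retinas. At 2 months it was 9.12, 9.06 and 9.11 in mutant retinas, against 9.36, 9.48 and 9.64 in normal retinas. Mutant arrays lay slightly above all normal arrays at the youngest age and below all of them a month later. By 3 months the signal was 9.03, 8.64 and 9.03 in mutant retinas, against 9.40, 9.42 and 9.43 in normal retinas. The oldest mutant retinas read 8.90, 8.83 and 8.58, against 9.37, 9.46 and 9.37 in normal retinas of that age. The genotypes stayed apart at both ages, and 2 mutant arrays, replicate 2 of 3 months and replicate 3 of 4 months, gave the lowest readings of the gene.

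The B4galt1 difference was 0.10 ± 0.10 at 1 month (limma, SE, adjusted p = 0.877). It was -0.40 ± 0.10 at 2 months (adjusted p = 0.024), -0.52 ± 0.10 at 3 months (adjusted p = 0.00174) and -0.63 ± 0.10 at 4 months (adjusted p = 0.00019). The last is a signal 1.54-fold lower, and averaged over the 4 ages B4galt1 was 0.36 lower in mutant retinas (SE 0.05, adjusted p = 1.1e-05). The change itself was tested 2 ways. Between 1 and 4 months the difference moved by -0.73 ± 0.14 (adjusted p = 0.0166), and B4galt1 was the only member to pass, where 0.241% of probe sets did. The moderated F test of any change with age gave F = 11.4 (adjusted p = 0.0419), again with B4galt1 as the only member and 0.321% of probe sets. Without the 3 arrays of high Grifin signal these became -0.74 (adjusted p = 0.0646) and F = 9.43 (adjusted p = 0.239), so neither passed, and the call at 2 months was lost as well (-0.39, adjusted p = 0.196). Without the 2 mutant arrays with the lowest readings, left out after the values were seen, both passed (-0.63 with adjusted p = 0.00683, and F = 16.1 with adjusted p = 0.0126). Leaving out a gene's own lowest readings narrows its spread, so these 2 values add no support for the change. Leaving out 1 array at a time ended the F call in 16 of 24 cases (adjusted p 0.0123 to 0.138) and the call of 4 minus 1 month in 2 of 24, namely normal retinas of 1 month replicate 3 (adjusted p = 0.0527) and of 4 months replicate 2 (adjusted p = 0.0748). The call at 2 months ended without mutant replicate 2 of that age (adjusted p = 0.0877), normal replicate 2 (0.0637) or normal replicate 3 (0.163). All 3 same-numbered pairs of that age deviated together (r 0.245 to 0.662), and with such pairs as a block the B4galt1 call at 2 months held in the fit of all arrays (adjusted p = 0.0499) and ended with the 6 arrays of that age alone (adjusted p = 0.107, a fit chosen after seeing the data).

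Within mutant retinas B4galt1 was 0.62 lower on the log2 scale at 4 months than at 1 month (difference -0.62 ± 0.10, adjusted p = 0.00104), one of 2 members that passed there, against 2.65% of probe sets. Within normal retinas the same comparison gave 0.11 ± 0.10 (adjusted p = 0.99). By group mean B4galt1 was highest in normal retinas of 2, 3 and 4 months and mutant retinas of 1 month, which did not differ beyond their spread, followed by normal retinas of 1 month. Mutant retinas of 2 months came next, and those of 3 and 4 months, which did not differ beyond their spread, were lowest.

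B4galt2 and B4galt3 carry out the same step on N-glycans and had smaller estimated differences over the 4 ages than B4galt1, a contrast that did not pass when tested below. At 1 month theirs were larger and of the other sign (-0.13 and -0.18, against 0.10). Averaged over the 4 ages B4galt3 was 0.17 lower in mutant retinas (SE 0.06, adjusted p = 0.0372), and B4galt2 had a difference of -0.17 ± 0.07 that did not pass (adjusted p = 0.0737). Over all ages B4galt3 ran from 8.71 to 9.12 (median 8.93) in the 12 mutant arrays and from 8.89 to 9.37 (median 9.05) in the 12 normal arrays, so the genotypes overlapped. At 1 month B4galt3 read 8.96, 8.99 and 8.93 in mutant retinas, against 9.07, 9.06 and 9.30 in normal retinas. Mutant arrays lay below all normal ones there and at 2 months, and overlapped them at 3 and 4 months. B4galt2 ran from 7.74 to 8.34 (median 8.08) in mutant arrays and from 7.98 to 8.62 (median 8.21) in normal arrays. It was without overlap only at 3 months, with 8.02, 7.93 and 8.15 in mutant retinas, against 8.62, 8.16 and 8.22 in normal retinas. At no single age did either gene pass, with differences from -0.30 to 0.00 for B4galt2 and from -0.22 to -0.06 for B4galt3. The B4galt3 call over the 4 ages ended in 11 of 24 leave-one-out fits (adjusted p 0.0109 to 0.0745) and without the 2 mutant arrays named above (-0.12, adjusted p = 0.122). Quantile normalization applied again gave B4galt2 a call over the 4 ages (-0.22, adjusted p = 0.000589).

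Whether the N-glycan members differed from each other was tested on the difference between their genotype differences, with an exact permutation test that relabels arrays within each age (160000 relabellings, 2-sided, 4 pairs of members, p adjusted over the 4). B4galt1 had a difference 0.20 lower than B4galt2 over the 4 ages (-0.20, exact permutation p = 0.0395, adjusted 0.079) and 0.19 lower than B4galt3 (-0.19, exact p = 0.0314, adjusted 0.079). Neither passed after adjustment, and 2 of the 24 leave-one-out cases for each pair did (lowest adjusted p 0.0305). At 4 months alone the gap was -0.63 between B4galt1 and B4galt2 and -0.57 between B4galt1 and B4galt3. B4galt2 and B4galt3 differed by 0.001 (exact p = 0.973).

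B4galt5, a lactosylceramide synthase, had the highest difference of the 7 members over the 4 ages and at 4 months. At 1 month it read 8.65, 8.50 and 8.49 in mutant retinas, against 8.40, 8.16 and 8.51 in normal retinas. At 2 months it read 8.50, 8.25 and 8.34 in mutant retinas, against 8.29, 8.19 and 7.95 in normal retinas. Genotypes overlapped at both young ages. Mutant retinas of 3 months read 8.70, 8.75 and 9.14, against 8.26, 8.41 and 8.39 in normal retinas. At 4 months the readings were 9.07, 8.90 and 8.76 in mutant retinas, against 8.06, 8.17 and 8.01 in normal retinas. From 3 months every mutant array lay above every normal array of its age.

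Differences for B4galt5 were 0.19 ± 0.12 at 1 month (adjusted p = 0.73) and 0.22 ± 0.12 at 2 months (adjusted p = 0.414). In mutant retinas it was 0.51 ± 0.12 higher at 3 months (adjusted p = 0.00941) and 0.83 ± 0.12 higher at 4 months (adjusted p = 0.000156), a 1.77-fold higher signal with a 95% interval of 0.58 to 1.08 on the log2 scale. Averaged over the 4 ages the difference was 0.44 ± 0.06 (adjusted p = 1.83e-05), the 36th highest of 1246 probe sets. The increase of the difference between 1 and 4 months was 0.64 ± 0.17 and did not pass (adjusted p = 0.0869). Within mutant retinas B4galt5 was 0.36 ± 0.12 higher at 4 than at 1 month (adjusted p = 0.118), and within normal retinas the difference was -0.28 ± 0.12 (adjusted p = 0.61), the only one of the 7 with an unadjusted limma p under 0.05 there (0.0313). No member and 0% of probe sets passed for age within normal retinas. The call at 3 months ended without mutant replicate 3 of that age (0.37, adjusted p = 0.0671).

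B4galt6, the other lactosylceramide synthase and the one best known from neural tissue, was also higher in mutant retinas but with a wide spread. At 1 month it read 7.88, 7.89 and 7.90 in mutant retinas, against 7.75, 7.82 and 7.60 in normal retinas. At 2 months it read 7.90, 7.75 and 7.29 in mutant retinas, against 7.75, 7.69 and 7.47 in normal retinas. The small separation of 1 month was gone at 2 months. At 3 months the readings were 8.20, 8.73 and 8.15 in mutant retinas, against 7.25, 7.78 and 7.67 in normal retinas. Mutant retinas of 4 months read 8.02, 7.92 and 8.65, against 7.81, 7.64 and 7.89 in normal retinas. Genotypes were apart at 1, 3 and 4 months, and the same 2 mutant arrays that read lowest for B4galt1 read highest for B4galt6.

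Averaged over the 4 ages B4galt6 was 0.35 ± 0.09 higher in mutant retinas (adjusted p = 0.0103). At 3 months it was 0.79 ± 0.18 higher (adjusted p = 0.0093), 1.73-fold and the 22nd highest of all probe sets, and at 4 months its difference of 0.41 ± 0.18 did not pass (adjusted p = 0.167). Without the 2 mutant arrays the difference was 0.61 at 3 months (adjusted p = 0.0203), 0.19 at 4 months (adjusted p = 0.491) and 0.24 over the ages (adjusted p = 0.024). The call at 3 months ended when mutant replicate 2 (adjusted p = 0.0611) or normal replicate 1 (adjusted p = 0.0601) of that age was left out alone, and quantile normalization applied again ended the call over the ages (0.30, adjusted p = 0.0642). The genotype differences of B4galt5 and B4galt6 differed by 0.09 over the 4 ages (exact permutation p = 0.492, adjusted 0.656), by -0.28 at 3 months and by 0.41 at 4 months, where no test was run.

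B4galt4, which can galactosylate sulfated acceptors, was higher in older mutant retinas. At 2 months it read 7.03, 6.95 and 6.97 in mutant retinas, against 6.86, 6.80 and 6.69 in normal retinas. At 3 months it read 7.10, 7.29 and 7.40 in mutant retinas, against 7.12, 6.73 and 6.89 in normal retinas. A single normal array, replicate 1, overlapped the mutant arrays at 3 months. At 4 months B4galt4 read 7.38, 7.38 and 7.16 in mutant retinas, against 6.89, 6.83 and 6.74 in normal retinas, again without overlap. At 1 month, when the readings were 6.83, 6.76 and 7.04 in mutant retinas and 6.85, 6.88 and 7.10 in normal retinas, the genotypes overlapped. The difference was -0.07 ± 0.10 at 1 month (adjusted p = 0.941) and 0.20 ± 0.10 at 2 months (adjusted p = 0.397). B4galt4 was higher in mutant retinas by 0.35 ± 0.10 at 3 months (adjusted p = 0.0341), by 0.49 ± 0.10 at 4 months (adjusted p = 0.00363, 1.40-fold) and by 0.24 ± 0.05 averaged over the ages (adjusted p = 0.00181). It was the other member to change with age within mutant retinas (0.43 ± 0.10, adjusted p = 0.0251), and the change of its genotype difference from 1 to 4 months was 0.55 ± 0.15 (adjusted p = 0.0869). The call at 3 months ended when 1 of 4 arrays was left out, mutant replicates 2 (adjusted p = 0.0938) and 3 (0.145) and normal replicates 2 (0.176) and 3 (0.0706) of that age. It also ended with quantile normalization (0.159), array weights (0.0585), only the groups compared (0.142), without the 3 arrays of high Grifin signal (0.0521) and without the 2 mutant arrays (0.0778). The call for age within mutant retinas likewise ended without mutant replicate 1 (0.0939) or 2 (0.165) of 1 month or mutant replicate 1 (0.112) or 2 (0.103) of 4 months.

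B4galt7, the enzyme of the proteoglycan linker, was slightly lower in mutant retinas. At 1 month it read 6.78, 6.87 and 6.74 in mutant retinas, against 6.93, 6.95 and 6.95 in normal retinas. At 4 months it read 6.75, 6.69 and 6.65 in mutant retinas, against 6.87, 6.83 and 6.81 in normal retinas. Mutant arrays lay below all normal arrays at 1, 3 and 4 months, and at 2 months replicate 1 of the mutant retinas (7.05) was the highest array of its age. Averaged over the 4 ages B4galt7 was 0.13 lower in mutant retinas (SE 0.04, adjusted p = 0.0196, 1.10-fold lower), with differences from -0.20 to -0.05 at single ages, none of which passed. Centring each array on its median ended the call over the ages (-0.11, adjusted p = 0.128).

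**Figure D2:**
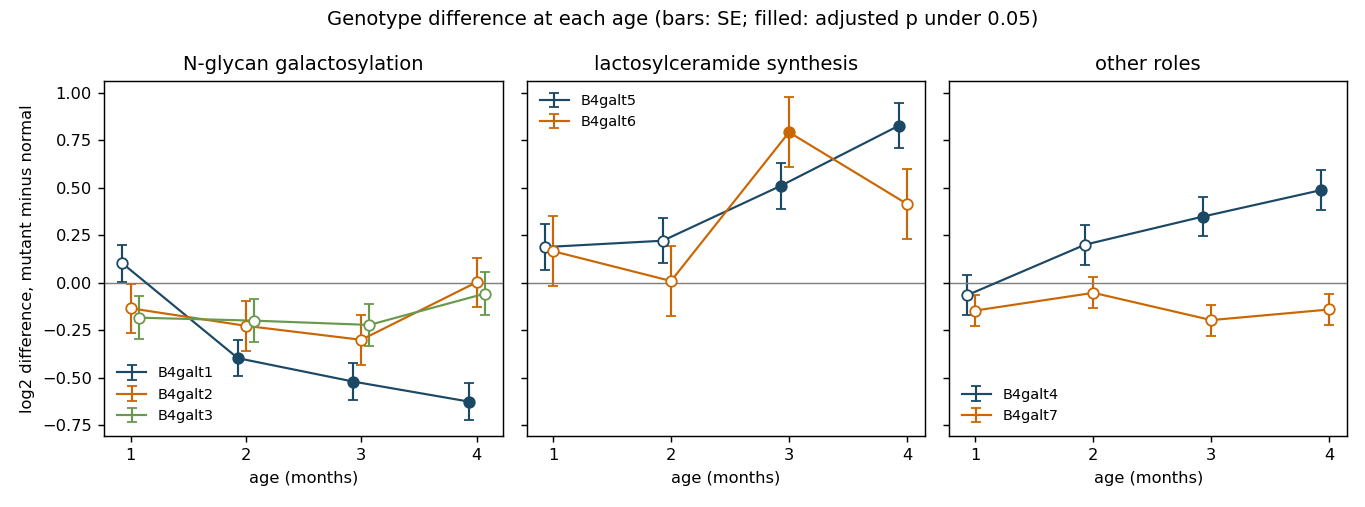
Log2 difference, mutant minus normal (vertical axis), against age in months for the members grouped by role, with SE bars from the limma fit of all 24 arrays. Filled points had an adjusted p under 0.05. B4galt1 runs from 0.10 to -0.63, B4galt5 from 0.19 to 0.83 and B4galt4 from -0.07 to 0.49, while B4galt6 peaks at 3 months with 0.79.

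The roles can be set side by side by their medians. N-glycan galactosylation (B4galt1 to B4galt3, 2 of 3 called over the 4 ages) had a median difference of -0.17, and lactosylceramide synthesis (B4galt5 and B4galt6, both called) one of 0.39, against -0.03 for all probe sets. At 4 months these medians were -0.06 and 0.62, against -0.01 for all probe sets. The linker enzyme B4galt7 had -0.13 over the ages and -0.14 at 4 months. The signs of the 7 differences over the ages were the same with each array centred on its median and with quantile normalization applied again. Those 2 scalings moved the share of all calls over the ages that were higher in mutant retinas, 61% as deposited, to 70.3% with centring and 50.6% with quantile normalization.

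Promoters are shown for the 3 members called at 4 months, as the 250 bases before the start site of the RefSeq promoter table, written along the gene's strand (RefSeq, GRCm38.p6). B4galt1 lies on chr4:40853985-40854234 (minus strand), B4galt4 on chr16:38742009-38742258 (plus strand) and B4galt5 on chr2:167349179-167349428 (minus strand). Capitals mark the GC box, searched as GGGCGG on both strands with overlaps allowed, which appears as its complement where it sits on the other strand. The B4galt4 window ends inside the annotated span of its gene, whose outermost start lies upstream of the start site used.
B4galt1: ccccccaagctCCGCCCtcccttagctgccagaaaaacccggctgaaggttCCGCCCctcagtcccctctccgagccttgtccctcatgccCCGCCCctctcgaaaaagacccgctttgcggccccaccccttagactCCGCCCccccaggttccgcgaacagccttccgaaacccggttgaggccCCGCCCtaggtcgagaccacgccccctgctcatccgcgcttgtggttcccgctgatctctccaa
B4galt4: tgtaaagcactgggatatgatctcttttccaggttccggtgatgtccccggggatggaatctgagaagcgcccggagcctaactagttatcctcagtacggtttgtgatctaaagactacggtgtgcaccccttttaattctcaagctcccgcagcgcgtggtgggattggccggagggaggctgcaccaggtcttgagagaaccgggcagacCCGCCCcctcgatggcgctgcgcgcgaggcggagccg
B4galt5: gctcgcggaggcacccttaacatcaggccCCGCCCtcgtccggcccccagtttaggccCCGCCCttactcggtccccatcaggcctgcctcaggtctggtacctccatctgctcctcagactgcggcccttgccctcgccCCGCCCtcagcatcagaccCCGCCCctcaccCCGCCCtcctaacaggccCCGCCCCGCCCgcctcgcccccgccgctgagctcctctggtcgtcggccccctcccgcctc
The table held 6 of the 7 members. GC boxes numbered 7 in the B4galt5 window, 5 in that of B4galt1, 2 in B4galt2, 1 in B4galt3, 1 in B4galt4 and 0 in B4galt7. Of 32851 promoters of the same length 32.7% held at least 1 GC box, 1.93% held 5 or more and 0.411% held 7 or more. B4galt1, which was lower in mutant retinas, and B4galt5, which was higher, were the members with the most matches. The GC content was 66.4% for B4galt1, 73.2% for B4galt5 and 59.2% for B4galt4. The B4galt4 window alone held a CCAAT box (letters CCAAT, in 33.8% of promoters). No member window held the letters TATAAA (12.4%) or CACGTG (6.02%). These are matches of letters only.

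Members also moved together in ways the groups do not set. B4galt2 and B4galt3 had a Pearson r of 0.92 over the 24 arrays and of 0.902 after each array's group mean was taken off. B4galt6 ran opposite to B4galt3 within groups (r = -0.829) and to B4galt2 (r = -0.756), and B4galt1 ran opposite to B4galt6 (r = -0.706). B4galt4 and B4galt5, both higher in older mutant retinas, had r = 0.823 over all arrays and 0.43 within groups. B4galt1 and B4galt4 had r = -0.774 over all arrays and 0.0578 within groups. The link of B4galt2 with B4galt3 was seen among replicates of a group, and that of B4galt1 with B4galt4 between groups. Both genes of a pair were read from the same arrays, so these values are descriptions without a p.

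Deviations of all 1246 probe sets from their group means were reduced to principal components. The first held 25.1% of this variation and followed Grifin (r = 0.947), and members followed it with r between -0.357 (B4galt2) and 0.19 (B4galt6). The second held 19.5% and was followed by B4galt6 (r = 0.853) on its upper side and by B4galt3 (r = -0.854), B4galt2 (r = -0.79) and B4galt1 (r = -0.761) on its lower side. Of all probe sets 122 (9.79%) had an r beyond 0.7 with the second component, so these 4 members belong to a minority that tracks it closely. Gnb1 had r = -0.546 with it. Mutant retinas of 3 months replicate 2 and of 4 months replicate 3 lay on the B4galt6 side. The part of this component in the genotype differences was not tested. Values without mutant replicate 2 of 3 months and replicate 3 of 4 months are given above.

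**Figure D3:**
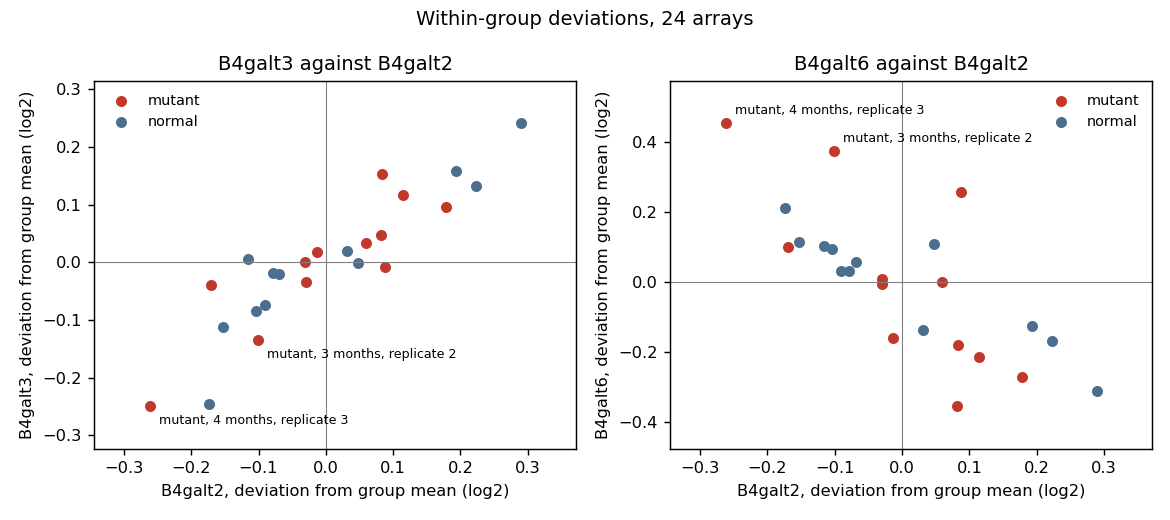
Deviation of each array from its group mean (log2) for B4galt3 (left) and B4galt6 (right) against the deviation of B4galt2, mutant arrays in red and normal arrays in blue. B4galt3 rises with B4galt2 (r = 0.902) and B4galt6 falls (r = -0.756) in both genotypes, and the 2 labelled mutant arrays lie at the low end for B4galt3 and at the high end for B4galt6.

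For each member, genes with the most similar signal over the 24 arrays were listed by Pearson r. B4galt5 was most like St8sia3 (r = 0.908), a sialyltransferase that rose by 0.44 over the ages, Tgfbr2 (0.904), a receptor of transforming growth factor beta, and Shh (0.888). B4galt4 was most like Chst10 (r = 0.877), the sulfotransferase of the HNK-1 epitope, which rose by 0.26, then Cd83 (0.868) and Hs3st1 (0.866). For B4galt1 the list was Armc1 (0.84), Galnt10 (0.837) and St8sia1 (0.834), the GD3 synthase, which fell by 0.43. B4galt2 and B4galt3 shared Pomgnt1 (0.934 for B4galt2 and 0.899 for B4galt3), an enzyme of O-mannosyl glycans, and Smim7, followed by Xylt2 for B4galt2 and by Gfus for B4galt3. B4galt6 was most like Galnt13 (0.842), Bmp5 (0.809) and B3galt1 (0.766). The partners given for B4galt7 are Alg13 (0.706) and Alg10b (0.681), enzymes of the N-glycan precursor.

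Genes around the members in their pathways were counted from written lists, over the 4 ages, where 22.6% of all probe sets were called and their median was -0.03. Rose and fell mean higher and lower in mutant than in normal retinas. Of 11 measured genes of N-glycan branching and trimming 3 rose, 2 fell and 6 did not pass (median 0.08). Man2a2 fell by 0.71 (SE 0.12, adjusted p = 0.000226) and Mgat1, the N-acetylglucosaminyltransferase that opens complex N-glycan synthesis, fell by 0.30 (SE 0.08), while Mgat4c (0.28 ± 0.04, with a low mean signal of 3.79), Man2a1 (0.28 ± 0.07) and Fut8, the core fucosyltransferase (0.25 ± 0.05), rose. Genes that make the acceptors of B4galt1 to B4galt3 had calls in both directions. Of 16 genes that cap or extend galactose ends 5 rose, 3 fell and 8 did not pass (median -0.02), led by B3gnt2, which extends poly-N-acetyllactosamine (0.56 ± 0.07, adjusted p = 4.19e-06), St3gal4 (0.32 ± 0.07) and St3gal6 (0.35 ± 0.08) upwards and St3gal1 downwards (-0.34 ± 0.07). St6gal1, which puts sialic acid on the galactose of N-glycans, rose by 0.22 ± 0.05.

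Of 12 genes of the glycosphingolipid core and gangliosides 4 rose, 1 fell and 7 did not pass (median 0.09). Ugcg, the glucosylceramide synthase that makes the substrate of B4galt5 and B4galt6, rose by 0.28 ± 0.05 (adjusted p = 0.000528), as did St6galnac5 (0.32 ± 0.08) and St8sia5 (0.21 ± 0.06). St8sia1, which acts on the ganglioside GM3 that follows lactosylceramide, fell by 0.43 (SE 0.07, adjusted p = 0.000212), and St3gal5, the GM3 synthase, had 0.19 and did not pass. The synthases of glucosylceramide and of lactosylceramide were higher, and later steps had calls in both directions.

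Of 15 genes of the glycosaminoglycan linker and chain start 2 rose, 5 fell and 8 did not pass (median -0.01). Ext1, a heparan sulfate polymerase, fell by 0.61 (SE 0.12, adjusted p = 0.000725), Chsy1 by 0.25 and Csgalnact2 by 0.20, and Extl2 rose by 0.26 ± 0.05. Xylt1, which starts the linker, fell by 0.16 (SE 0.04), and B3galt6, which adds the galactose after that of B4galt7, had 0.03 and did not pass. Of 8 genes that supply UDP-galactose, Pgm2 (0.31 ± 0.05) and Ugp2 (0.16 ± 0.04) rose and 6 did not pass (median -0.02). Of 9 keratan sulfate genes Chst2 rose (0.30 ± 0.07) and 8 did not pass (median 0.00). None of 4 beta-1,4-N-acetylgalactosaminyltransferases passed in limma, with B4galnt1 at 0.16 and B4galnt2 at -0.07. Among 8 genes that remove galactose or its caps Psap rose (0.17 ± 0.04), Gla fell (-0.16 ± 0.05) and 6 did not pass (median -0.01). Of the 7 beta-1,3-galactosyltransferase genes B3galt1 (0.54 ± 0.06) and B3galt2 (0.14 ± 0.03) rose and 5 did not pass (median 0.04). B3galt2 had a mean log2 signal of 2.65, under the 25th percentile of 3.83, so its probe set is among the dimmest and is gone when those are left out. The shares called in the lists of UDP-galactose supply (2 of 8), galactose removal (2 of 8) and beta-1,3-galactosyltransferases (2 of 7) lay near that of all probe sets.

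**Figure D4:**
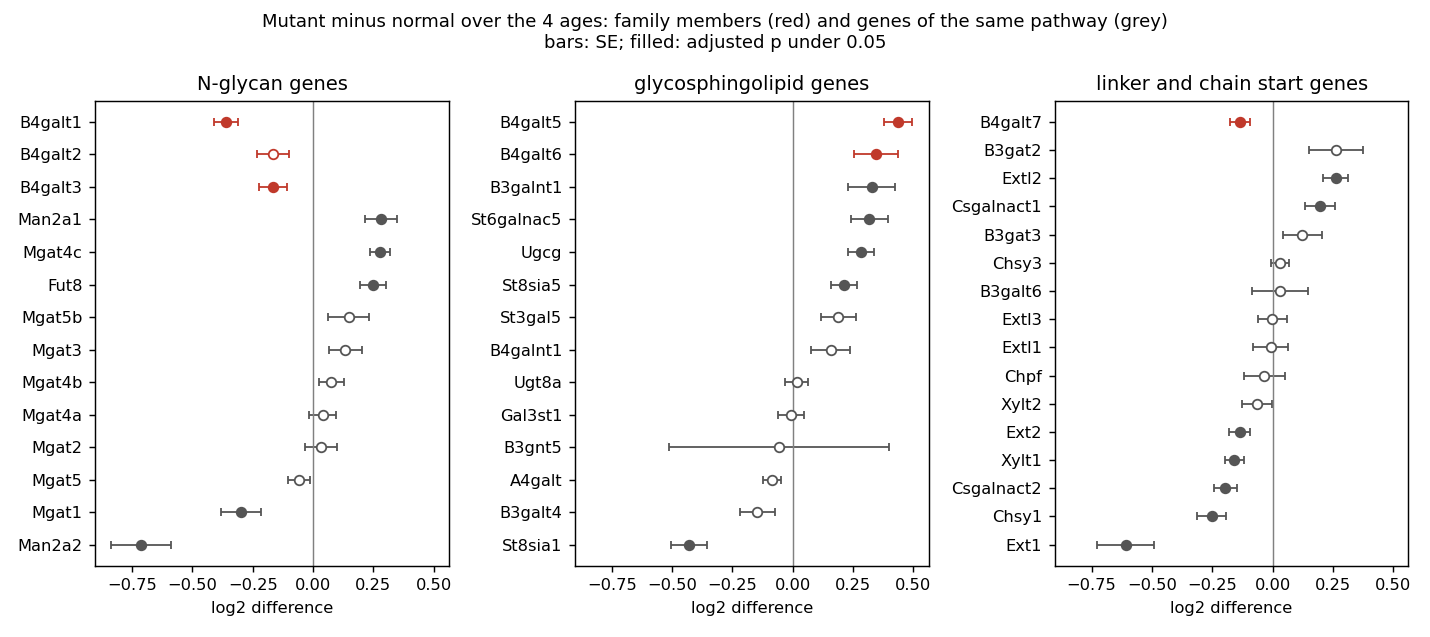
Log2 difference, mutant minus normal over the 4 ages (horizontal axis), with SE bars, for the members (red) and measured genes of the N-glycan, glycosphingolipid and linker lists (grey). Filled points had an adjusted p under 0.05. B4galt5, B4galt6 and Ugcg lie on the higher side, B4galt1, Mgat1 and Man2a2 on the lower.

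Some markers of other cells passed over the 4 ages, where 22.6% of all probe sets were called. Of 7 measured markers of microglia and macrophages 5 rose, led by Csf1r (0.89 ± 0.09), Cx3cr1 (0.94 ± 0.10), Adgre1 (0.81 ± 0.10) and Cd48 (0.69 ± 0.10). Lgals3 (-0.38 to 0.51 at single ages) and Cd33 (-0.08 to 0.04) did not pass. Aif1, Itgam, Cd68, Tmem119, P2ry12 and Trem2 were among the genes of this written list that were not measured. The summed signal of the 7 ran from 9.01 to 9.98 (log2) in mutant arrays and from 8.57 to 9.30 in normal arrays. Of 5 markers of Müller glia and astrocytes 4 rose, with Vcam1 (0.81 ± 0.08), Icam1 (1.00 ± 0.12), Fgf2 (0.34 ± 0.05, with a low mean signal of 3.57) and Cd44 (1.01 ± 0.25), and Lgals1 did not pass. Gfap, Vim, Glul, Rlbp1, Slc1a3 and Aqp4 of the same written list were not measured. The sum ran from 9.62 to 10.77 in mutant arrays and from 9.05 to 10.52 in normal arrays. Lgals1 was the brightest of the 5 by mean log2 signal (8.85), and a sum weighs the brightest genes most. Markers of endothelium and pericytes numbered 5, of which Mcam (0.34 ± 0.06) and Cd34 (0.32 ± 0.07) rose. Pecam1 (-0.29 to 0.16 at single ages), Pdgfrb (-0.09 to 0.19) and Cspg4 (-0.16 to 0.11) did not pass. The sums were 7.48 to 8.07 in mutant arrays and 7.46 to 7.78 in normal arrays. Gnb1 fell by 0.21 (SE 0.06, adjusted p = 0.0121), a call that ended with quantile normalization applied again and without the 3 arrays of high Grifin signal. At single ages its difference ran from -0.28 to -0.13 and did not pass. Its signal lay between 12.62 and 13.04 in mutant arrays and between 12.64 and 13.26 in normal arrays. None of 4 markers of choroid, sclera and pigment epithelium passed in limma, and L1cam of inner neurons did not pass (0.17). The part of these cell types in the members' differences was not tested. In whole retina, fewer cells of a type and less RNA per cell cannot be told apart.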

How the data were processed

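Total RNA was hybridised as biotinylated cRNA, and the authors deposited log2 RMA values, per the labels and the submitters' processing notes; which arrays RMA normalized together, its version and any filter are not given in the sources used here. Nothing was scaled again. Probe sets were named through the transcript accession in their name and RefSeq genes: 963 of 1246 matched 909 genes. One limma 3.58.1 model (R 4.3.3) with 8 group means was fitted to all 24 arrays and all probe sets (16 residual and 4.37 prior degrees of freedom). P-values (2-sided) were adjusted per contrast over the 1246 probe sets by Benjamini and Hochberg, at a threshold of 0.05; errors are SE. A gene of a list with several probe sets was represented by the brightest. Pairs of members were tested by exact permutation within ages. The steps were tested on simulated data. The deviations of 2 arrays with 1 replicate number from their group means had r above 0.1 in 3 of 12 pairs (-0.03 to 0.662), all 3 of them the pairs of 2 months. At that age replicate 2 of both genotypes had a high Grifin signal (11.29 and 11.33). Deviations from a mean of 3 arrays depend on each other, so these 3 values of r are not independent. Whether numbers pair arrays was not tested. The main model held no replicate block, and blocks by number entered alternatives only.

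The members, gene lists and tests were chosen with earlier results of these data known, and omission of the 3 arrays of high Grifin signal too. Named genes were all members, up to 4 called genes of a list by smallest p, or the 2 with the smallest p where none passed, and the 3 most similar genes per member, 1 of which is not reported here. Beyond this Mgat1, St6gal1, St3gal5, Xylt1 and B3galt6 were named for their role after their values were seen. Alternatives were centring on the median, quantile normalization, filters on low signal, eBayes with a trend or robust, array weights, only the groups compared, replicate blocks, Grifin and Dcn as covariates, a threshold of 0.01, the mean of a gene's probe sets, and each array left out.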

Additional observations from a re-analysis of the deposited data

Results flagged for a closer look

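B4galt1 stood out because its genotype difference changed with age. Between 1 and 4 months the difference moved by -0.73 (limma, adjusted p = 0.0166), and the moderated F for a change with age was 11.4 (adjusted p = 0.0419). Neither passed without the 3 arrays of high Grifin signal, and the F call ended in 16 of 24 leave-one-out fits. The groups of 3 arrays did not overlap at any age, with the mutant arrays above the normal arrays at 1 month (difference 0.10) and below them at 2 months (-0.40), 3 months (-0.52) and 4 months (-0.63). At 1 month 22.1% of probe sets had groups without overlap.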

How the results depend on the processing

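Of the 17 single-gene differences called, the F test of B4galt1 apart, none turned direction under any alternative or omission. The call was lost in 48 of their 639 alternative values. The counts of called members were 6 over the 4 ages, 0, 1, 4 and 3 at 1 to 4 months, 1 for 4 minus 1 month between genotypes, 1 for the F test, and 2 in mutant and 0 in normal retinas for age. An adjusted p under 0.01 left 3 over the ages, 0 at 2 months, 0 for the difference of 4 minus 1 month, 0 for F and 1 for age in mutants. Quantile normalization gave 5 at 3 months, a count within 1.5 times that hides 1 loss and 2 gains. With only the groups compared in the fit, 0 passed at 2 months, 0 at 3 months and 1 for age in mutants, where fewer arrays enter the spread. Centring left 1 for age in mutants. Array weights gave 3 for the difference of 4 minus 1 month and 3 for F. Quantile normalization gave 2 for that difference, and leaving out the 2 mutant arrays gave 3. Without the 3 arrays of high Grifin signal 0 passed at 2 months, 0 for that difference and 0 for F. Grifin and Dcn as covariates gave 0 at 2 months and 0 for F, and the mean of a gene's probe sets gave 0 for F. The replicate number as a block gave 0 for F and changed no other count by over 1.5 times. The 6 arrays of 2 months alone with that block, chosen after seeing the data, gave 0. Same-numbered arrays as a block gave 0 for that difference and 0 for F, and 4 members at 4 months, and could not be fitted for age within a genotype. The causes were not tested. These counts are not set beside the share of all probe sets called in the same fits, which can move too. Leaving out each array gave 5 to 7 over the ages, 0 to 1 at 2 months, 2 to 4 at 3 months, 3 at 4 months, 0 to 3 for that difference, 0 to 1 for F and 1 to 2 for age in mutants. Of all probe sets the same fits called 237 to 344 over the ages, 14 to 62 at 2 months and 66 to 168 at 3 months. They called 107 to 179 at 4 months, 0 to 24 for that difference, 0 to 31 for F and 9 to 45 for age in mutants. Differences between members ran from -0.23 to -0.17 for B4galt1 and B4galt2, from -0.23 to -0.16 for B4galt1 and B4galt3, from 0.03 to 0.17 for B4galt5 and B4galt6, and from -0.014 to 0.017 for B4galt2 and B4galt3. The last turned to -0.080 under quantile normalization and -0.00168 without the 2 mutant arrays. Differences near 0 that had not passed also turned sign. B4galt2 at 4 months became -0.15 under quantile normalization, -0.037 without the arrays of high Grifin signal, -0.028 with covariates and -0.087 to 0.13 without single arrays. B4galt3 at 4 months became 0.0041 with array weights, 0.067 without the 2 mutant arrays and -0.13 to 0.067 without single arrays. B4galt6 at 2 months became -0.012 without the arrays of high Grifin signal and -0.12 to 0.19 without single arrays. Without single arrays B4galt7 at 2 months ran from -0.15 to 0.031 and B4galt4 at 1 month from -0.15 to 0.013.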
